A study of Spodoptera litura with 9 samples.

Results

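Some assembled long non-coding RNA (lncRNA) loci of the Spodoptera litura testis carry more than 1 transcript, and the members described here are transcripts of such loci. In the lncRNA table of this moth, 1919 of 2476 transcripts have names given by a transcript assembler, in which the last number counts the transcripts of a locus (MSTRG.1541.2 and MSTRG.1541.3 belong to MSTRG.1541). They fall into 1727 loci. A transcript was kept when its mean over the 9 libraries was at least 20 estimated counts, which left 1427, and a locus was kept when at least 2 such transcripts remained and their values were not the same in every library. This gave 225 transcripts in 105 loci. Of the others, 1198 loci had 1 kept transcript, and 2 loci (MSTRG.2605 and MSTRG.8785) were left out because their transcripts had identical values throughout. The members were thus chosen by their mean counts over all 9 libraries, and those means are not a result. The least abundant members were MSTRG.14106.1 at a mean of 20.1 counts and MSTRG.4927.1 at 24.0, and the nearest below the minimum, each in a locus with a kept transcript, were MSTRG.14916.4 at 18.0 and MSTRG.1204.2 at 17.8.

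A locus makes several transcripts when transcription starts or ends at different places or when exons are joined in different ways. The transcripts of an lncRNA locus can differ in stability, in where they lie in the cell and in which sequences they can pair with, and animal testes are known for rich sets of lncRNAs and of isoforms. In many moths the paired larval testes join into a single organ around pupation, while male germ cells go on developing inside them. The files do not pair the assembled names with genes, positions or sequences, so no function is given for any locus below.

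The study followed testis fusion. Testes were taken before fusion at day 4 of the sixth larval instar (L6D4), during fusion at day 6 of that instar, when the larvae are prepupae (L6D6), and after fusion on day 0 of the pupa (P0D), with 3 libraries at each stage. Larvae were reared on an artificial diet, and no strain, genotype or drug treatment is named in the labels. Fusion, age and pupation proceed in parallel over these stages and cannot be told apart. The labels mention 9 dissected males and 3 repeats a stage without saying how animals were pooled, so the p-values measure the spread between these libraries, which may be technical. In whole testes, fewer cells of a type and less RNA per cell cannot be told apart either.

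Library totals lay between 2665554 (L6D4 replicate 3) and 4262529 (P0D replicate 1) estimated lncRNA counts, and the 10 most abundant lncRNAs held between 59.42% and 72.09% of them. The lowest of these shares was in P0D replicate 3, whose scaling factor (trimmed mean of M values, TMM) was 1.448. The 225 members held between 4.65% and 6.60% of a library's counts.

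Below, a share is a transcript's percentage of the counts summed over the kept transcripts of its locus in 1 library, and the main transcript of a locus is the one with the highest mean share at a stage. A share is a ratio within a library, so it does not depend on scaling between libraries. Transcript lengths are not in the files, so shares are of counts and not of molecules. A share also counts only what the lncRNA table lists. In 25 loci a transcript number below the highest listed one is missing from the table, and in 80 none is. A transcript numbered above the highest listed one would not be seen this way, so these 80 loci may also be incomplete. In 6 loci a further listed transcript lay under the minimum, and the kept transcripts held at least 88.2% of the locus total in each when averaged over the libraries. The sources used here do not give how reads common to several transcripts of a locus were divided. Among the values of the members, 9.38% were whole numbers (exactly, as deposited), against 66.1% among the kept transcripts of loci with 1 kept transcript, so most member values carry decimals.

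The loci were mostly small families with a leading transcript. Of the 105 loci, 92 had 2 member transcripts, 12 had 3, and MSTRG.16619 had 5. The summed count of a locus, averaged over the libraries, ranged from 50.67 to 35184 with a median of 399. The largest transcript held between 33.2% and 99.2% of its locus on average, with a median of 64.9%. Among the loci of 2, the larger transcript took under 60% in 27 loci, between 60 and 90% in 57 and at least 90% in 8. In 60 of the 105 loci, the same transcript was the largest in all 9 libraries.

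Differences in mean share between stages and SDs of shares within a stage had similar ranges over the loci. The largest difference in mean share between any 2 stages ranged over the loci from 0.343 to 51.5 percentage points, with a median of 6.82 points. The largest standard deviation (SD) within a stage ranged from 0.274 to 48.9 points, with a median of 8.82. In 50 loci the difference between stages was above that SD, and in 55 it was not. That SD is of single libraries, while the difference is between means of 3 libraries, so this split is not a test. The difference stayed under 5 points in 29 loci, reached 10 points in 34 and reached 20 points in 14. The step from L6D4 to L6D6 had a median largest difference of 4.41 points, the step from L6D6 to P0D one of 3.5 points, and the span from L6D4 to P0D one of 5.44 points.

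**Figure D1:**
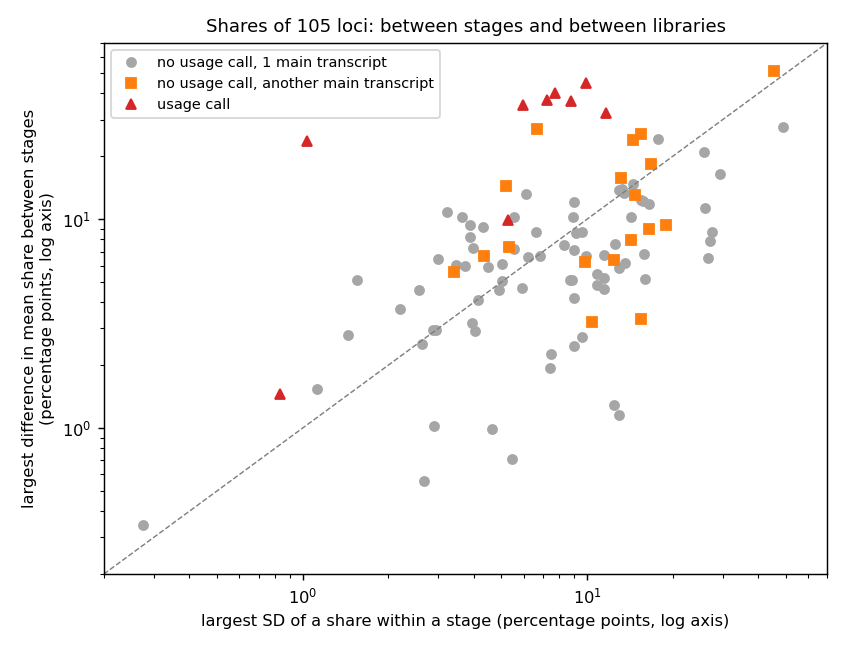
Each point is 1 of the 105 loci, with the largest within-stage SD of a transcript's share (percentage points, log axis) across and the largest difference in mean share between stages (percentage points, log axis) upwards. In 55 loci the point lies on or under the line of equality, and the 9 loci with a usage call lie above it. The calls were made on the same counts, so the place of these 9 is not separate support for them.

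Changes in transcript usage, meaning a change in how a locus divides its counts, were seen in few loci, all of them relative to L6D4. A locus was called when edgeR's test of differential transcript usage (diffSpliceDGE) gave an adjusted p under 0.05, with Benjamini-Hochberg adjustment over all 135 assembled loci with 2 or more testable transcripts. For L6D6 against L6D4, 7 of 104 tested member loci were called (6.73%), against 7.41% of all 135 loci tested. For P0D against L6D4, 8 of 104 were called (7.69%), against 8.15% of all loci tested. Both comparisons share the L6D4 libraries, and 6 loci were called in both: MSTRG.1541, MSTRG.4110, MSTRG.4652, MSTRG.10487, MSTRG.20058 and MSTRG.20404. Another 3 were called in 1 comparison: MSTRG.13029 at L6D6 against L6D4, and MSTRG.2424 and MSTRG.13597 at P0D against L6D4. For P0D against L6D6 edgeR called 0 of 104 member loci, against 0.0% of all loci tested. There, 4 member loci had an unadjusted p under 0.05 with edgeR, and neither limma-voom nor limma on within-library log ratios called any.

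The edgeR usage test treats the transcripts of a library as independent, and 50, 64 and 45 of the 104 member loci had a p over 0.5 for L6D6 against L6D4, for P0D against L6D6 and for P0D against L6D4 in turn. A limma test on the log2 ratio of a transcript to the rest of its locus within a library, added after the data had been seen, called 7 member loci at L6D6 against L6D4 and 7 at P0D against L6D4, against 6.82% and 7.58% of the 132 loci it tested. Of each 7, 6 were the loci named above as called in both comparisons, and the other was MSTRG.8461. Each of these 6 kept its call in both comparisons under all 15 alternatives, 9 of which left out 1 library.

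In each of the 6 loci, the transcript with the lower mean share at L6D4 gained share, and all its later libraries lay above all its L6D4 libraries. The 6 loci were picked by usage calls on the same counts, so this separation describes them and is not separate support. At L6D6 its mean share was still the lower one in 5 loci, and in MSTRG.1541 it was the higher one.

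MSTRG.20058, the deepest of the 6, gave the tightest values. MSTRG.20058.4 took 5.94%, 5.96% and 7.69% of the locus in the L6D4 libraries, 25.4%, 26.3% and 27.4% at L6D6, and 29.5%, 30.1% and 31.1% at P0D. The L6D4 values lay far below all later ones, and the P0D values lay above all L6D6 values. The usage change of this transcript relative to its locus was 1.40 on the log2 scale (SE 0.15) at L6D6 against L6D4, with an edgeR adjusted p of 2.88e-06 for the locus. At P0D against L6D4 it was 1.53 (SE 0.15, edgeR adjusted p = 7.33e-07). Averages are given below as mean ± SD over the 3 libraries of a stage (n = 3), in the order of the stages. In CPM (counts scaled to the size of the lncRNA table and the TMM factor), MSTRG.20058.4 averaged 80.2 ± 14.2 at L6D4, 605 ± 10.6 at L6D6 and 606 ± 142 at P0D, and its partner MSTRG.20058.3 averaged 1146 ± 50.8, 1693 ± 68.4 and 1405 ± 376. The minor transcript therefore rose by 2.92 on the log2 scale (SE 0.21) at L6D6 against L6D4, with an edgeR adjusted p of 2.28e-06. The change of MSTRG.20058.3 was 0.56 (SE 0.19, edgeR adjusted p = 0.0538), which did not pass. The locus total rose by 0.91 (SE 0.18, edgeR adjusted p = 0.00302). In this locus 2 transcript numbers are missing from the table.

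MSTRG.4652 had a transcript that was listed at 0 in all 3 L6D4 libraries. The estimated counts of MSTRG.4652.3 were 30.66, 93.93 and 32.63 at L6D6 and 131.7, 167.15 and 180.78 at P0D. Its share was 0% at L6D4, where 3 counts over the stage would allow up to 0.501%, then 12.9%, 26.1% and 14.6% at L6D6 and 37.4%, 38.9% and 35.4% at P0D. The 3 stages did not overlap and followed the order of development. Against a floor of 3 counts over the 3 L6D4 libraries, its CPM was at least 36.0-fold higher at L6D6 and at least 114-fold higher at P0D. The edgeR adjusted p for usage of the locus was 2.88e-06 at L6D6 against L6D4 and 6.60e-07 at P0D against L6D4. The further gain at P0D against L6D6 did not pass either for usage (edgeR adjusted p = 0.554) or for the level of MSTRG.4652.3 (log2 change 1.65, SE 0.38, edgeR adjusted p = 0.0718). Without L6D6 replicate 2 both passed (edgeR adjusted p = 0.0363 for usage, and 0.00756 for the level with a log2 change of 2.25). The level also passed with these 2 stages alone (edgeR adjusted p = 0.0495) and with DESeq2 (adjusted p = 0.004). The partner MSTRG.4652.4 averaged 72.8 ± 5.24 CPM at L6D4, 57.0 ± 4.71 at L6D6 and 70.4 ± 11.6 at P0D, and no change of it was called. In this locus, too, 2 transcript numbers are missing.

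In MSTRG.4110 the minor transcript rose, and at P0D against L6D4 its partner fell. MSTRG.4110.2 took 3.30%, 3.84% and 4.60% of the locus at L6D4, 36.6%, 44.8% and 29.4% at L6D6 and 46.2%, 36.9% and 49.2% at P0D. The L6D4 values lay below all others, while L6D6 and P0D overlapped. Its level averaged 2.49 ± 0.692 CPM at L6D4, 26.8 ± 7.09 at L6D6 and 28.6 ± 6.55 at P0D. It rose by 3.43 on the log2 scale at L6D6 against L6D4 (SE 0.35, edgeR adjusted p = 3.54e-05) and by 3.52 at P0D against L6D4 (SE 0.35, edgeR adjusted p = 2.38e-05). MSTRG.4110.1 averaged 61.3 ± 12.8, 45.1 ± 2.84 and 36.6 ± 8.75 CPM at the 3 stages in order. Its log2 change of -0.44 at L6D6 against L6D4 did not pass (SE 0.24, edgeR adjusted p = 0.214), and it fell by 0.75 at P0D against L6D4 (SE 0.24, edgeR adjusted p = 0.0380). That fall was lost in 10 alternatives, with edgeR adjusted p between 0.0547 and 0.239, among them the fits without L6D4 replicate 1 or 2, without any single L6D6 library and without P0D replicate 2 or 3. No change in the locus total was called, with log2 changes of 0.17 and 0.03 at L6D6 and P0D against L6D4 (edgeR adjusted p = 0.625 and 0.945).

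**Figure D2:**
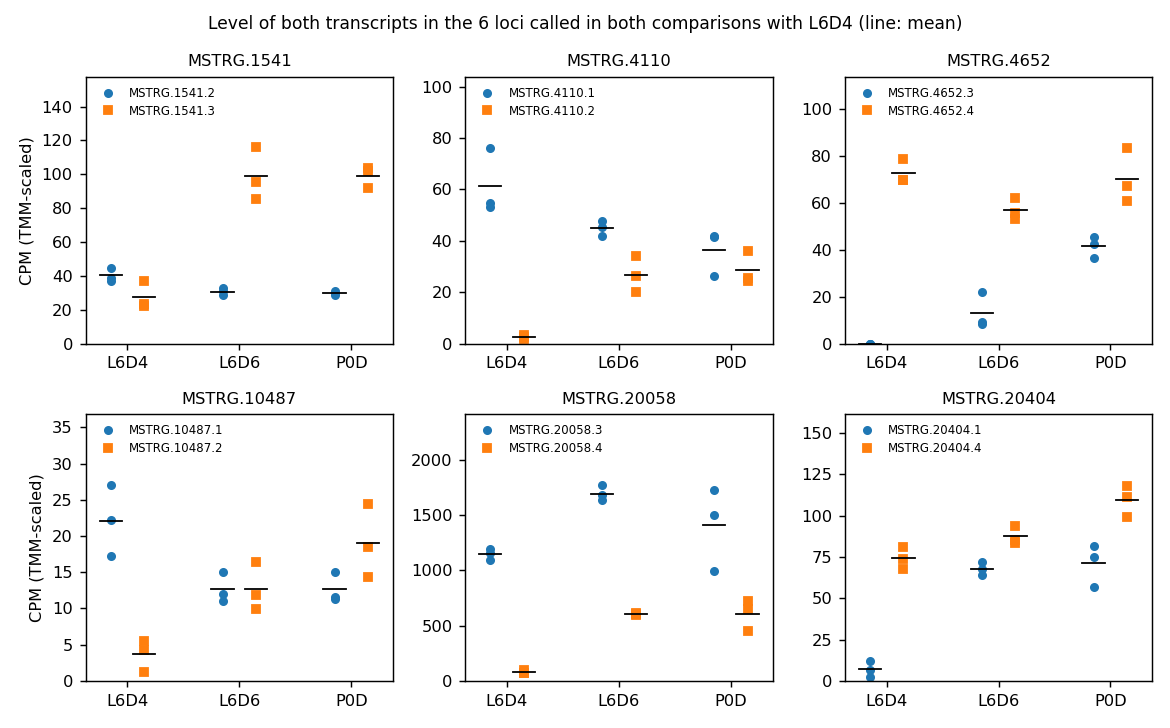
The level of both transcripts (CPM with TMM factors, linear axis from 0) in each library of L6D4, L6D6 and P0D is drawn for the 6 loci with a usage call in both comparisons against L6D4. In all 6 panels every L6D4 library of the transcript that gained share lies below every later library of it. The loci were picked by usage calls on the same counts.

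MSTRG.1541 changed its main transcript. MSTRG.1541.3 took 33.1%, 37.4% and 50.1% of the locus at L6D4, 76.9%, 78.0% and 73.4% at L6D6 and 76.7%, 78.3% and 75.5% at P0D. All L6D4 values lay below all later ones. In L6D4 replicate 3 the transcripts were nearly equal, at 72.93 counts for MSTRG.1541.3 and 72.65 for MSTRG.1541.2, so in 2 of 3 L6D4 libraries MSTRG.1541.2 was the larger and in the 6 later libraries MSTRG.1541.3 was. The level of MSTRG.1541.3 averaged 27.4 ± 8.29 CPM at L6D4, 99.1 ± 15.9 at L6D6 and 99.2 ± 6.20 at P0D, a rise of 1.87 on the log2 scale at L6D6 against L6D4 (SE 0.24, edgeR adjusted p = 0.00017). MSTRG.1541.2 averaged 40.3 ± 4.14, 30.7 ± 2.02 and 29.8 ± 1.04 CPM, with a log2 change of -0.39 that did not pass (SE 0.19, edgeR adjusted p = 0.174). The locus total rose by 0.94 (SE 0.18, edgeR adjusted p = 0.00193), and the usage call had an edgeR adjusted p of 7.79e-05. In this locus 1 transcript number is missing.

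In MSTRG.20404 the gaining transcript approached its partner without passing it. MSTRG.20404.1 took 2.42%, 14.3% and 8.88% of the locus at L6D4, 43.4%, 42.9% and 44.7% at L6D6 and 40.8%, 40.2% and 36.5% at P0D. The stages did not overlap, with L6D6 highest. It averaged 6.98 ± 5.11 CPM at L6D4, 67.9 ± 3.96 at L6D6 and 71.1 ± 12.6 at P0D, and the rise at L6D6 against L6D4 was 3.30 on the log2 scale (SE 0.44, edgeR adjusted p = 0.000212). MSTRG.20404.4 averaged 74.1 ± 6.80, 87.5 ± 5.54 and 109.5 ± 9.6 CPM. Its change was not called at L6D6 against L6D4 (log2 0.24, edgeR adjusted p = 0.370), and it rose by 0.56 at P0D against L6D4 (SE 0.17, edgeR adjusted p = 0.0326), a call lost in 7 alternatives (edgeR adjusted p between 0.056 and 0.0969), among them the fits that left out L6D6 replicate 2, either of P0D replicates 1 and 2, or either of L6D4 replicates 2 and 3. The locus total rose by 0.94 at L6D6 against L6D4 (SE 0.17, edgeR adjusted p = 0.00116). Again 2 transcript numbers are missing.

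MSTRG.10487 was the shallowest of the 6 loci. MSTRG.10487.2 took 5.23%, 13.1% and 24.9% of the locus at L6D4, 57.7%, 51.5% and 39.9% at L6D6 and 61.2%, 48.7% and 68.4% at P0D. Here the L6D4 libraries differed widely among themselves but lay below all later ones, and counting error alone gave a single share a Wilson 95% interval of up to 12.2 points to each side. Its level averaged 3.65 ± 2.25 CPM at L6D4, 12.8 ± 3.27 at L6D6 and 19.1 ± 5.12 at P0D. It rose by 1.87 on the log2 scale at L6D6 against L6D4 (SE 0.47, edgeR adjusted p = 0.0146) and by 2.45 at P0D against L6D4 (SE 0.47, edgeR adjusted p = 0.00242). MSTRG.10487.1 averaged 22.1 ± 4.89, 12.7 ± 2.06 and 12.7 ± 2.07 CPM. Its change of -0.81 missed the threshold at L6D6 against L6D4 (SE 0.27, edgeR adjusted p = 0.0512), and the fall of 0.81 passed at P0D against L6D4 (edgeR adjusted p = 0.0455). This fall was lost in all alternatives but that without L6D4 replicate 3 (adjusted p between 0.0613 and 0.353 with edgeR or DESeq2 where lost), and without L6D6 replicate 1 the rise of MSTRG.10487.2 at L6D6 against L6D4 had an edgeR adjusted p of 0.0596. MSTRG.10487 and MSTRG.4110 were the only 2 member loci in which 1 transcript was called higher and another lower in the same comparison, P0D against L6D4, against 2.27% of 132 assembled loci with 2 or more tested transcripts that were not identical.

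The 3 loci called in a single comparison had smaller or less steady differences. MSTRG.13029.1 took 27.4%, 19.0% and 31.7% at L6D4, 63.8%, 62.1% and 49.0% at L6D6 and 39.2%, 38.4% and 18.6% at P0D. Its share was therefore highest at L6D6, where it was above every library of both other stages, and P0D overlapped L6D4. The edgeR adjusted p for usage was 0.0410 at L6D6 against L6D4, with a fall of MSTRG.13029.2 by 0.90 on the log2 scale (SE 0.24, edgeR adjusted p = 0.0190). The usage call of MSTRG.13029 was lost in 9 of 15 alternatives (adjusted p between 0.0506 and 0.197 with edgeR or limma), among them those without L6D4 replicate 1 or 2, any single L6D6 library or P0D replicate 2. The fall of MSTRG.13029.2 was lost without L6D4 replicate 3, without L6D6 replicate 1 or 2 and with library totals alone (edgeR adjusted p between 0.0572 and 0.182). MSTRG.13597.2 averaged 15.9 ± 3.79% at L6D4, 22.0 ± 1.45% at L6D6 and 25.7 ± 5.29% at P0D (edgeR adjusted p = 0.0352 for usage at P0D against L6D4), and MSTRG.2424.2 averaged 1.24 ± 0.832%, 2.54 ± 0.113% and 2.69 ± 0.748% (edgeR adjusted p = 0.0497). The usage call of MSTRG.13597 was lost in 11 of 15 alternatives (adjusted p between 0.0619 and 0.292 with edgeR or limma), among them those without any single L6D6 library, L6D4 replicate 2 or 3, or P0D replicate 2 or 3. That of MSTRG.2424 was lost in 12 of 15 (adjusted p between 0.053 and 0.27 with edgeR or limma). Among the fits that left out a library, it held without L6D4 replicate 3 and without P0D replicate 3.

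**Figure D3:**
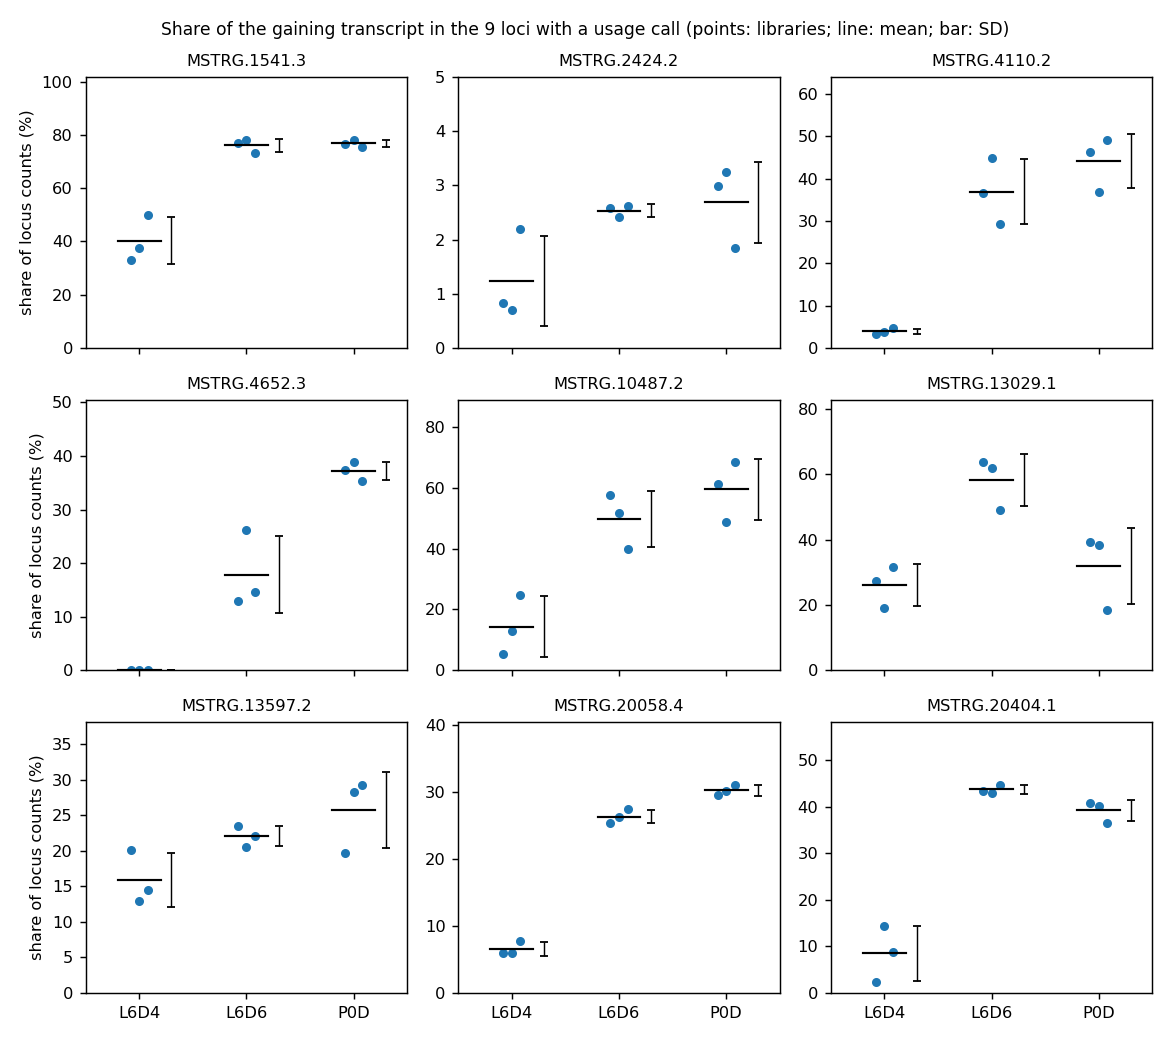
Shares (percent of the locus, linear axis from 0) of the transcript that gained share are drawn for each library at L6D4, L6D6 and P0D in the 9 loci with a usage call. In the 6 loci called in both comparisons every L6D4 library lies below every later library. The loci were picked by usage calls on the same counts.

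MSTRG.8461, a locus of 3 transcripts, was called by limma on log ratios but not by edgeR in the fit used for the calls above. MSTRG.8461.1 averaged 62.1 ± 6.69% at L6D4, 35.2 ± 3.81% at L6D6 and 37.3 ± 4.26% at P0D. Its companions gained: MSTRG.8461.2 averaged 24.5 ± 1.69%, 37.1 ± 3.94% and 35.2 ± 2.31%, and MSTRG.8461.3 averaged 13.4 ± 5.37%, 27.7 ± 4.25% and 27.5 ± 2.21%. The adjusted p for usage at L6D6 against L6D4 was 0.0611 with edgeR and 0.0263 with limma on log ratios. Over all 15 alternatives it lay between 0.00398 and 0.266 with edgeR or limma. Of these 15, 7 called the locus in that comparison, and 4 did at P0D against L6D4. Limma-voom called it in both comparisons. The levels of MSTRG.8461.2 and MSTRG.8461.3 rose by 1.5 and 1.90 on the log2 scale (SE 0.30 and 0.43, edgeR adjusted p = 0.00383 and 0.0078), and that of MSTRG.8461.1 had a log2 change of 0.11 (edgeR adjusted p = 0.824).

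The change in usage was also compared between the successive steps, L6D6 against L6D4 and P0D against L6D6. With edgeR this step difference was called in 7 of 104 member loci, against 5.19% of all 135 loci tested. They were MSTRG.1541, MSTRG.4110, MSTRG.4652, MSTRG.4723, MSTRG.13029, MSTRG.20058 and MSTRG.20404. Both steps share the L6D6 libraries. Limma on log ratios called MSTRG.4110, MSTRG.4652 and MSTRG.20058, against 2.27% of the loci it tested. In MSTRG.20058 the gaining transcript took 19.8 points more at L6D6 than at L6D4 and 3.91 points more at P0D than at L6D6.

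Shares did not overlap between stages in a minority of the loci in every comparison. In the loci of 2 transcripts, the shares at L6D6 and L6D4 did not overlap in 23 of 92, against 19.9% of 141 assembled loci with 2 detected distinct transcripts. For P0D and L6D6 this held in 15 of 92, against 13.5%, and for P0D and L6D4 in 18 of 92, against 15.6%.

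A different main transcript at different stages was found in 21 of the 105 loci, and this is a description with no test of its own. The main transcript changed at L6D6 and stayed changed in 9 loci, changed only at P0D in 7 and differed only at L6D6 in 5. In 0 of the 21 did all 9 libraries show the main transcript of their stage. A usage call was present in 3 of them, MSTRG.1541, MSTRG.10487 and MSTRG.13029, and absent in 18. Of those 18, 10 had a largest difference between stages above their largest within-stage SD and 8 had not.

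In 10 of these 21 loci the largest difference in mean share between stages was under 10 points. These were MSTRG.271, MSTRG.745, MSTRG.3794, MSTRG.4830, MSTRG.4927, MSTRG.6316, MSTRG.8033, MSTRG.11541, MSTRG.12360 and MSTRG.17539. In MSTRG.745, for example, MSTRG.745.2 averaged 54.2 ± 9.82% at L6D4, 51.4 ± 2.69% at L6D6 and 47.9 ± 1.38% at P0D. MSTRG.4830.1 averaged 52.1 ± 3.14%, 44.8 ± 2.28% and 49.0 ± 5.33%, and MSTRG.271.1 averaged 53.0 ± 2.81%, 49.4 ± 0.975% and 56.1 ± 4.35%. All 3 stayed near equal shares.

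The other 11 loci had differences of 10 points or more. They include MSTRG.1541, MSTRG.10487, MSTRG.13029 and MSTRG.8461 from above and 6 further loci, none with a usage call. MSTRG.10664.1 averaged 61.9 ± 14.4% at L6D4, 48.4 ± 15.5% at L6D6 and 36.3 ± 6.57% at P0D. MSTRG.8100.2 averaged 57.2 ± 9.89%, 33.2 ± 8.25% and 46.5 ± 14.6%, MSTRG.18851.4 averaged 56.8 ± 8.26%, 38.5 ± 7.41% and 48.3 ± 16.8%, and MSTRG.5074.4 averaged 50.5 ± 11.1%, 35.4 ± 13.2% and 34.8 ± 2.38%. MSTRG.20685.1 averaged 36.0 ± 13.8%, 40.3 ± 11.8% and 30.9 ± 3.20% in a locus of 3. MSTRG.9959.2 averaged 54.5 ± 4.51%, 51.2 ± 2.38% and 40.0 ± 5.20%. Among the transcripts given for these 6 loci, its SD was the smallest at L6D4 and L6D6 but not at P0D.

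The largest difference of all, 51.5 points, was in MSTRG.19424 and rested on a transcript absent from most libraries. MSTRG.19424.7 had 103.98, 131.68 and 0 estimated counts at L6D4 and was listed at 0 in all 6 later libraries. It was the main transcript in 2 of 3 L6D4 libraries and averaged 51.5 ± 45.5% there (SD, n = 3). Its companion MSTRG.19424.6 had 48.68, 20.91 and 42.68 counts at L6D4, 222.17, 276.94 and 260.61 at L6D6 and 377.59, 357.44 and 381.83 at P0D. Those counts did not overlap between stages, and the level of MSTRG.19424.6 rose by 2.19 on the log2 scale at L6D6 against L6D4 (SE 0.32, edgeR adjusted p = 0.000378). MSTRG.19424.7 was the only member left out of the tests by the filter on low counts. Its CPM was at least 99.4-fold lower at L6D6 and at least 98.4-fold lower at P0D than at L6D4 (floor of 3 counts over the stage), and L6D4 replicate 3 also had none. In this locus 5 transcript numbers are missing.

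**Figure D4:**
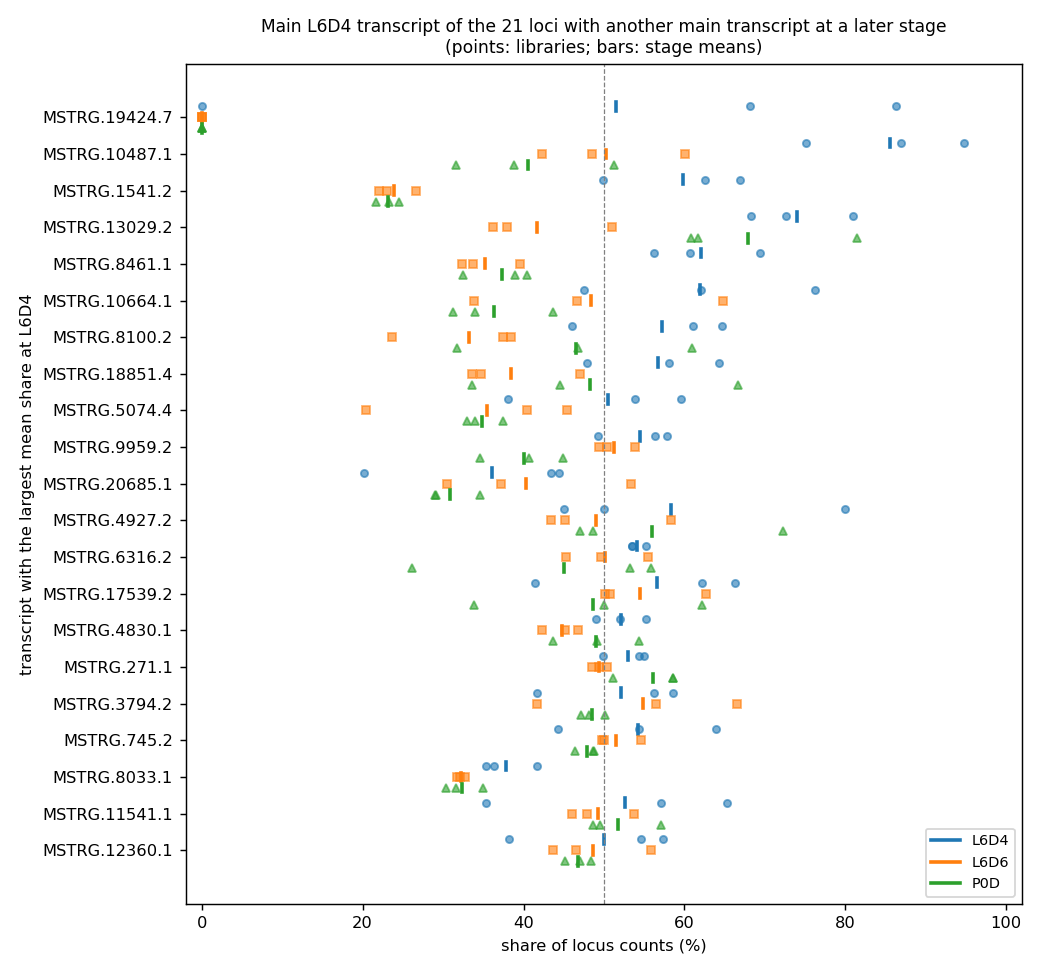
The mean share (percent of the locus) at L6D4, L6D6 and P0D of the transcript that was the main one at L6D4 is drawn with the single libraries for the 21 loci whose main transcript is not the same at all stages. In the lower 10 loci the stage means differ by under 10 points, and in MSTRG.1541, MSTRG.8461 and MSTRG.10487 every L6D4 library lies above every later one.

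The 5 loci with the most counts had mean shares that differed between stages by under 10 points. MSTRG.13756 had the highest summed count, and MSTRG.13756.1 averaged 69.4 ± 4.15% at L6D4, 73.5 ± 1.5% at L6D6 and 73.3 ± 1.49% at P0D. MSTRG.14161.1 averaged 53.5 ± 1.37%, 56.3 ± 0.521% and 54.1 ± 1.44%. In MSTRG.8033, a locus of 3, the third transcript averaged 24.5 ± 1.03%, 29.4 ± 1.89% and 29.1 ± 1.96%, while the first and second changed places as main transcript at 37.8 ± 3.42%, 32.2 ± 0.553% and 32.3 ± 2.33% for MSTRG.8033.1. At L6D4 the first and second were nearly equal, their means lying closer than the SD of MSTRG.8033.1 there. In MSTRG.4723, also of 3, the first transcript was highest at L6D6, with 7.83 ± 3.69%, 14.6 ± 2.91% and 7.04 ± 2.47%.

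In percentage points, shares were steadiest in 3 loci, and the total of 2 of them fell. In these 2 the main transcript held nearly the whole locus, which leaves little room for differences in points. MSTRG.11235.2 averaged 99.4 ± 0.088% at L6D4, 99.0 ± 0.274% at L6D6 and 99.1 ± 0.222% at P0D, while the locus total fell by 1.32 on the log2 scale at L6D6 against L6D4 (SE 0.17, edgeR adjusted p = 0.000124) and by 1.64 at P0D against L6D4 (SE 0.18, edgeR adjusted p = 2.01e-05). The unadjusted edgeR p for its usage was 0.0185 and 0.0467 in these comparisons (adjusted p = 0.156 and 0.286). At L6D6 against L6D4 the log2 change was -0.65 for MSTRG.11235.1 and -1.32 for MSTRG.11235.2. MSTRG.5685.3 averaged 97.2 ± 1.79%, 97.1 ± 2.68% and 97.7 ± 2.25%, and the total of MSTRG.5685 fell by 1.78 and 1.71 in the same comparisons (SE 0.28 each, edgeR adjusted p = 0.000437 and 0.000508). MSTRG.13363.1, with a smaller lead over its partner, averaged 61.5 ± 4.64%, 60.5 ± 3.09% and 60.8 ± 0.827%. Its total had log2 changes of -0.57 and -0.63 in these comparisons, which did not pass (SE 0.26 each, edgeR adjusted p = 0.132 and 0.0869). These are 3 of the loci with at least 100 summed counts in every library, and they had the smallest share differences among such loci.

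The levels of the member transcripts changed about as often as those of other lncRNAs. For L6D6 against L6D4, 45 of 224 tested members were called by edgeR's quasi-likelihood test (20.1%, 26 higher and 19 lower), against 22.1% of all 1913 transcripts tested (13.0% higher and 9.1% lower), with a median log2 change of -0.03 for the members and -0.02 for all. For P0D against L6D4, 58 were called (25.9%, 33 higher and 25 lower), against 26.6% (14.1% higher and 12.5% lower), with medians of 0.05 and 0.01. For P0D against L6D6 edgeR called 0 of 224, against 1.78% (0.47% higher and 1.31% lower). In that comparison 18 members had an unadjusted p under 0.05 with edgeR, and DESeq2 called 3. With scaling to library totals alone, the median of all transcripts moved to 0.31 at L6D6 against L6D4 and 0.40 at P0D against L6D4, and the members' calls split into 41 higher and 6 lower, and 48 higher and 7 lower.

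Locus totals were called more often than usage was. Of the 105 locus totals, 28 were called by edgeR at L6D6 against L6D4 (26.7%, 17 higher and 11 lower), against 25.0% of all 1759 totals tested (14.5% higher and 10.5% lower), and 33 at P0D against L6D4 (31.4%, 18 higher and 15 lower), against 28.5% (15.0% higher and 13.6% lower). With library totals alone these splits were 25 to 5 and 27 to 5. At L6D6 against L6D4, 25 loci had a called total without a usage call, 4 had a usage call without a called total, and 3 had both. At P0D against L6D4 the counts were 29, 4 and 4. At P0D against L6D6 a single total was called (0.952%, against 2.44% of all totals, 0.853% higher and 1.59% lower): MSTRG.13795 rose by 0.82 on the log2 scale (SE 0.19, edgeR adjusted p = 0.0408), with 45.1 ± 10.3 CPM at L6D4, 147 ± 16.8 at L6D6 and 260 ± 17.5 at P0D. Its call was lost in 9 alternatives (edgeR adjusted p between 0.0502 and 0.179), among them those without any single L6D6 or P0D library or without L6D4 replicate 3.

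In most loci of 2, the fitted changes of both transcripts had the same sign, as in assembled loci of 2 in general. Among 91 member loci of 2 with both transcripts tested, this held in 66 at L6D6 against L6D4, against 70.7% of 116 such assembled loci. It held in 57 at P0D against L6D6, against 58.6%, and in 67 at P0D against L6D4, against 71.6%. All member transcripts were called higher at L6D6 against L6D4 in 4 loci (MSTRG.271, MSTRG.8313, MSTRG.19817 and MSTRG.20154). They were all called lower in 5 (MSTRG.745, MSTRG.5684, MSTRG.5990, MSTRG.11414 and MSTRG.17520). The shares over 132 assembled loci were 4.55% and 3.03%. There all tested transcripts of a locus were counted, those under the minimum included, so the definitions are not the same. In MSTRG.271, MSTRG.19817 and MSTRG.5990 each member transcript kept its call in all alternatives. In the other 6, at least 1 transcript lost it without L6D6 replicate 2 and without at least 1 other library (edgeR adjusted p between 0.0513 and 0.468 where lost). Some but not all were called higher in 15 loci and lower in 9, against 14.4% and 8.33%, none was called in 71, and 1 locus had too few tested transcripts. The examples that follow were picked after their values were seen. MSTRG.19817 had the largest change of these, with a total of 7.09 ± 3.87 CPM at L6D4, 70.5 ± 22.5 at L6D6 and 81.3 ± 8.9 at P0D, a rise of 3.31 on the log2 scale at L6D6 against L6D4 (SE 0.38, edgeR adjusted p = 4.58e-05). MSTRG.5990 had 3179 ± 841, 1001 ± 388 and 1063 ± 66.6 CPM, a fall by 1.67 in that comparison (SE 0.26, edgeR adjusted p = 0.000487). MSTRG.271 was highest at L6D6, with 202 ± 23.8, 434.5 ± 69 and 273 ± 50.7 CPM, a rise of 1.11 at L6D6 against L6D4 (SE 0.18, edgeR adjusted p = 0.00076).

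**Figure D5:**
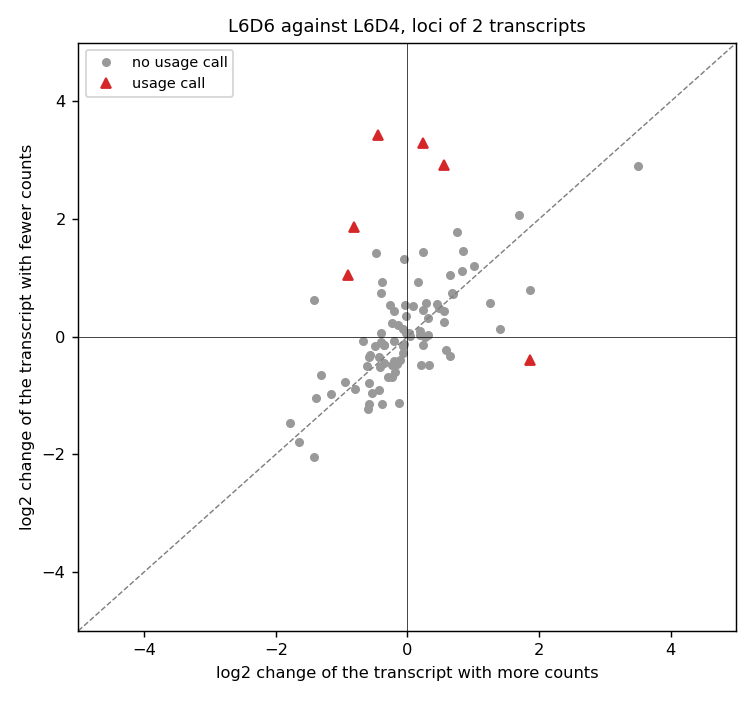
The log2 change at L6D6 against L6D4 of the transcript with fewer counts is plotted against that of the transcript with more counts in 90 loci of 2, with the line of equal change and marks on 6 of the 7 loci with a usage call (MSTRG.4652, with a transcript at 0 in all L6D4 libraries, is not drawn). In 66 of 91 loci of 2 the changes have 1 sign, and 4 of the 6 marked loci lie where the signs differ.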

How the data were processed

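Per the labels' protocols, testis RNA was freed of ribosomal RNA and made into dUTP-stranded libraries for a NovaSeq, although the labels name the molecule as polyA RNA. What the authors deposited are estimated counts (expected counts) per lncRNA transcript without depth scaling. The submitters' processing notes list StringTie 1.3.4, HISAT2 2.1.0, Bowtie2 2.2.8, fastp 0.18.0 and DESeq2 1.6.3 without roles. The counting tool, genome build and use of strand were not given in the sources used.

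Shares were computed from the deposited values. For tests, values were rounded, since whole counts had been planned for. edgeR 4.0.16 (R 4.3.3) was fitted to all 9 libraries with TMM factors and filterByExpr: 1913 rows were tested and 563 left out (6 residual degrees of freedom, common dispersion as a coefficient of variation 0.28). SEs are the log2 change divided by the root of F. Usage was tested with diffSpliceDGE, and locus totals were refitted after summing the rows of a locus. Levels are relative to the lncRNA table. The log ratios for limma 3.58.1 used a pseudocount of 0.5. DESeq2 1.42.0, limma-voom, library totals alone, no filter, the replicate block, 2-stage fits and leaving out each library were alternatives. Scripts were tested on simulated data. Wilson 95% intervals and floors of 3 counts cover counting error only.

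Libraries of the same stage always differed by more than sampling noise, with chi-square over degrees of freedom from 16.33 to 135.19. The highest values were for P0D replicate 3 against P0D replicates 1 and 2 (135.19 and 61.79), and the next highest was 31.79. The members and lists were chosen with earlier results of these data known. Named were all loci with a different main transcript between stages, all 9 loci with a usage call, the 5 with the most counts and the 3 steadiest, and other names were chosen after their values were seen.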

Additional observations from a re-analysis of the deposited data

Results flagged for a closer look

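In 7 loci the change in transcript usage differed between the successive steps, L6D6 minus L6D4 and P0D minus L6D6, in edgeR's test of that difference (diffSpliceDGE, adjusted over 135 loci). The adjusted p with edgeR was 0.00151 for MSTRG.4652, 0.00182 for MSTRG.4110, 0.00316 for MSTRG.20058, 0.0084 for MSTRG.20404, 0.0264 for MSTRG.1541 and 0.043 each for MSTRG.4723 and MSTRG.13029. In MSTRG.4652, MSTRG.4110, MSTRG.20058 and MSTRG.1541 the mean share of the gaining transcript was higher at each stage than at the one before. The first step in share was the larger in MSTRG.4110, MSTRG.20058 and MSTRG.1541. The test compares log2 changes, and MSTRG.4652.3 was at 0 in all L6D4 libraries. For MSTRG.4652 the call therefore does not show steps of unequal size in share points. In MSTRG.20404, MSTRG.4723 and MSTRG.13029 that share was highest at L6D6 and lower again at P0D. For MSTRG.4723.1, a transcript of 1 of the most abundant loci, the share averaged (± SD, n = 3) 7.83 ± 3.69% in L6D4 testes, 14.6 ± 2.91% in L6D6 testes and 7.04 ± 2.47% in P0D testes, and edgeR called no usage change of its locus between any 2 stages in the fit used for the usage calls above. At P0D against L6D6 its usage was called with the replicate block (edgeR adjusted p = 0.0205) and without P0D replicate 1 (edgeR adjusted p = 0.0372). The limma test on log ratios called 3 of the 7 (MSTRG.4110, MSTRG.4652 and MSTRG.20058).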

How the results depend on the processing

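Usage calls at L6D6 against L6D4 (7 loci) and P0D against L6D4 (8) stayed between 6 and 10 and between 6 and 11 in all alternatives run. At P0D against L6D6, usage calls were 0 to 1 without 1 library (MSTRG.4652 without L6D6 replicate 2, MSTRG.4723 without P0D replicate 1) and 1 with the replicate block (MSTRG.4723). Step differences were 2 to 7 without 1 library (2 without L6D6 replicate 3, 3 without L6D6 replicate 1 or 2, 4 without P0D replicate 2) and 3 with limma on log ratios. Level calls at P0D against L6D6 were 0 to 2 without 1 library, 1 with the replicate block, 2 with these 2 stages alone and 3 with DESeq2. Total calls at L6D6 against L6D4 (28) were 17 to 35 without 1 library, the lowest without L6D6 replicate 2. Total calls at P0D against L6D6 were 0 to 1 without 1 library, 0 with library totals alone or the replicate block, and 3 with DESeq2. Same-numbered libraries correlated at between -0.204 and 0.146, and 2 of 9 pairs were above 0.1. Pairs with different numbers correlated at between -0.289 and 0.251. No pairing by number was seen, but a check on so few libraries cannot exclude it. With the replicate block, 7 and 6 usage calls were made in the comparisons with L6D4. A minimum mean of 50 gave 16 loci with a changing main transcript among 78. Single named calls were kept in 1551 cases, lost in 256 and reversed in 0. Named values that were not called in the main fit are not in these counts.

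The tests rest on 3 libraries a stage, on reads divided by estimation, and on counts without transcript lengths. Shallow loci such as MSTRG.10487 had counting intervals of up to 12.2 points. Whether estimation of shared reads had a part in any change of usage was not tested.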

Other observations

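In 13 member transcripts, 30 values in all were listed at 0. In 8 of them a library was at 0 while another library of the same stage had 50 or more counts, and these were picked after their values were seen. MSTRG.16978.6 had 209.36, 0 and 0 counts at L6D4, 206.64, 107.92 and 0 at L6D6 and 0, 0 and 15.29 at P0D, and its companion MSTRG.16978.4 had 0, 41.3 and 0, then 153.28, 0 and 123.57, then 49, 72.37 and 171.41. MSTRG.3675.1 had 163.49, 159.49 and 201.53 counts at L6D4, 63, 75.79 and 151 at L6D6, and 0, 124.21 and 158.82 at P0D. MSTRG.8864.1 had a 0 at L6D4 and at L6D6, beside 55.99 and 113.44 counts in other libraries of those stages. The others were MSTRG.3788.1, MSTRG.12852.2, MSTRG.15631.3 and MSTRG.19424.7. A share of 0 in these loci therefore occurred within a stage as well as between stages, and no usage call was made in these loci (MSTRG.19424 was not tested for usage).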
